A study of Solanum lycopersicum with 16 samples.

Results

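Salt, low pH and flooding each reach a plant through its roots, and the roots of tomato plants under these stresses were compared with one another here, without the unstressed controls. The comparison covers 6 of the 16 deposited measurement columns, chosen by their labels: the root columns of the salt, low pH and flood treatments, each run on 2 PCR plates. All plants were tomato of the cultivar M82, grown in a greenhouse and treated when young by way of the potting medium. The medium was saturated with 200 mM NaCl for salt and with water of pH 4.2 for low pH, and roots were submerged in water for flood. M82 carries a mutant form of SlIDD5 (the obv allele), which all 3 groups therefore share. Roots were taken 2 h and 24 h after treatment, and 22 transcripts were quantified by qRT-PCR (SYBR Green) against ubiquitin. They were SlSTOP1, STF4, CRF5, SlIDD-like1 and the 18 numbered SlIDD genes, 11 to a plate. No assay among them marks root tissue or a stress, so the labels could not be checked against the data.

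INDETERMINATE DOMAIN (IDD) proteins are plant transcription factors with zinc fingers, named after a maize gene needed for flowering. In Arabidopsis, members of the family pattern the root together with SHORT-ROOT and SCARECROW, act with DELLA proteins in gibberellin signaling and shape how organs respond to gravity. The related Arabidopsis factor STOP1 is required for root growth in acid soil, where it activates the malate transporter ALMT1.

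The Ct value of a well is the PCR cycle at which its product crossed a threshold, so a lower Ct stands for more transcript and 1 cycle for about a doubling. Of 576 wells on the 6 columns, 527 were used, with Ct values from 13.65 to 27.18. Up to 4 wells stood behind each target, stress and time: 92 of the target groups had 4 wells, 38 had 3 and 2 had 2. By the methods, both biological samples and technical replicates entered the quantification, but which wells belong to which plant is not given in the sources used here. Each p-value therefore measures the spread between wells only, and wells of 1 plant would make it too small. The level of a target is given on the log2 scale as the mean ubiquitin Ct of the same plate, stress and time minus the Ct of the target. Fold values assume a doubling in each cycle. Levels of different targets are not compared, since primer efficiencies are not given in the sources used here.

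Ubiquitin itself was not level across the stresses, and low pH roots stood apart. On the first plate its Ct at 2 h was 15.11 ± 0.21 in salt, 14.55 ± 0.32 in low pH and 15.15 ± 0.28 in flood roots (SD, n = 4 each). At 24 h it was 15.55 ± 0.26 in salt (n = 4), 13.74 ± 0.07 in low pH (n = 4) and 15.34 ± 0.13 in flood roots (n = 2). On the second plate the order at 2 h was turned: the Ct was 17.49 ± 0.99 in low pH, with single wells at 17.23, 18.94, 17.01 and 16.77, against 14.54 ± 0.18 in salt and 15.19 ± 0.08 in flood roots. The second plate gave at 24 h 15.93 in low pH (n = 2), 15.25 in salt (n = 3) and 15.22 in flood roots (n = 2). Low pH wells of ubiquitin thus came up, by mean Ct, earlier than the others on the first plate and later on the second. The low pH columns of the plates share a stress label but differ in their time label, whereas time was read here from the rows of wells. Whether this conflict bears on the shift of ubiquitin between the plates was not tested. None of the 12 differences passed after adjustment (exact two-sided permutation test, smallest adjusted p = 0.0857), and wells of 4 against 4 cannot give an exact p below 0.0286. On the second plate at 2 h the wells of each pair of stresses did not overlap and reached that lowest p, yet did not pass. This includes salt minus flood, at -0.65 cycles. The same held for salt and low pH wells of the first plate at 24 h. With so few wells these tests cannot show that ubiquitin was level. The mean Ct of the 11 targets on the second plate at 2 h was 19.32 in salt, 20.87 in low pH and 19.93 in flood roots, so the targets of low pH were late there as well, by less than ubiquitin.

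**Figure D1:**
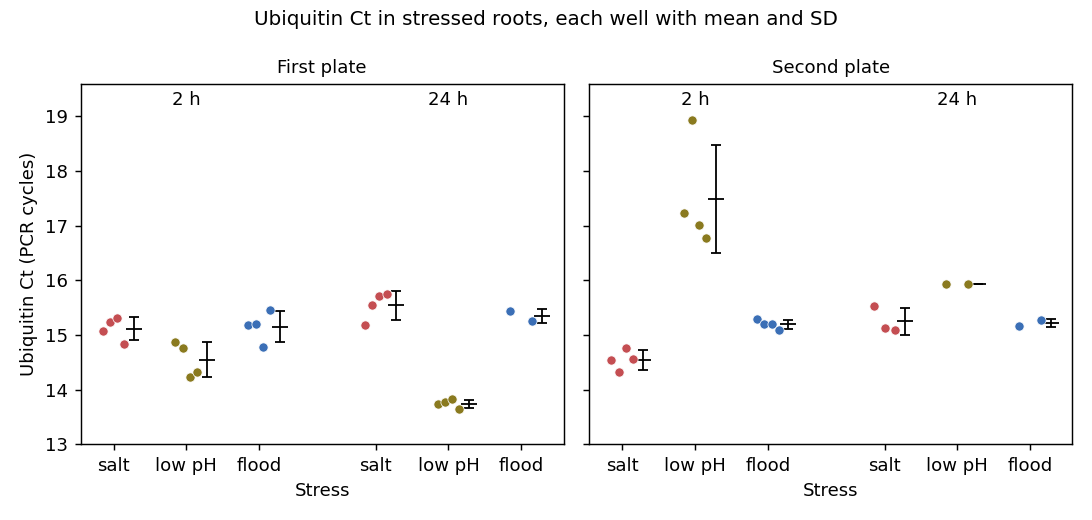
Ubiquitin Ct in PCR cycles (vertical axis) for each well of salt, low pH and flood roots at 2 h and 24 h, on the first plate (left) and the second plate (right). Points are wells, and the bars give the mean and SD; low pH lies lowest on the first plate at 24 h (13.74) and highest on the second at 2 h (17.49).

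Every difference against low pH roots therefore carries the reference with it, and each was also computed against the mean of the targets of the plate, without a reference, against ubiquitin over both plates and against ubiquitin of the same row of wells. Salt against flood was the comparison least affected. All 4 of its calls at 2 h and 7 of 9 at 24 h passed with the same sign under all 4 of these choices, and the other 2, SlIDD11 and SlIDD14, passed under the 3 that could be fitted. For flood against low pH these numbers were 3 of 8 at 2 h and 4 of 13 at 24 h. For salt against low pH they were 0 of 3 at 2 h and 1 of 7 at 24 h. The kept calls of both comparisons with flood include CRF5 and STF4 at both times. Whether the flood positions of these targets were exchanged, as described below, was not tested, and a change of reference cannot show it. Besides them, SlIDD14 and SlIDD2 were kept at 2 h for salt against flood, and SlIDD2 for flood against low pH.

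At 2 h 18.2% of the 22 targets passed the test between salt and flood roots (limma, adjusted p under 0.05, 3 higher and 1 lower in salt). The median absolute log2 difference over all targets was 0.26 for this pair, 1.24 for salt against low pH and 1.20 for flood against low pH. Against low pH roots at 2 h, 13.6% of targets passed in salt (0 higher, 3 lower) and 36.4% in flood roots (3 higher, 5 lower). The shares at 24 h were 31.8% for salt against low pH (7 higher, 0 lower), 59.1% for flood against low pH (10 higher, 3 lower) and 40.9% for salt against flood (3 higher, 6 lower). These shares moved with the reference, and without one salt against low pH had 17 calls at 24 h. The salt and flood roots share the low pH wells as the other side of their comparisons, so the counts against low pH are not independent of each other. A set of 6 targets (SlIDD4, SlIDD15, SlIDD16, SlIDD17, SlIDD-like1 and SlSTOP1) passed in none of the 6 comparisons, and the other 16 passed in at least 1.

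The plates differed in direction, as did ubiquitin. In salt against low pH at 2 h, 1 of 11 targets of the second plate had a log2 difference above 0, with a median of -1.44, whereas without a reference 11 of 11 lay above 0 with a median of 1.5. At 24 h 10 of 11 targets of the first plate lay above 0 in the same comparison, with a median of 0.78, and 0 of 11 did so without a reference, where the median was -1.02.

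**Figure D2:**
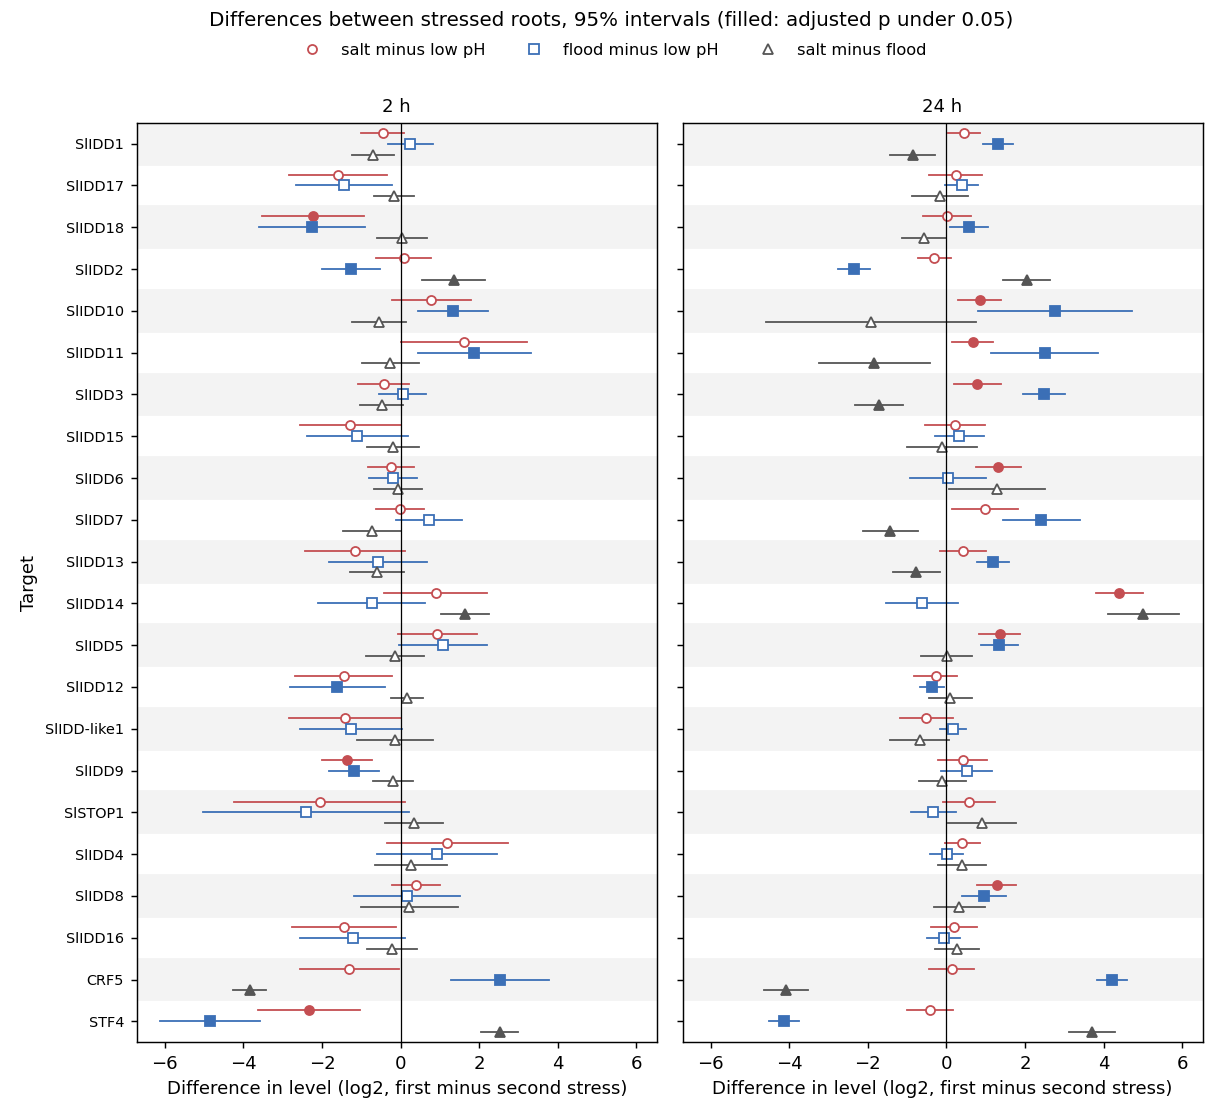
Log2 differences in level between stressed roots (horizontal axis) for the 22 targets, ordered by phylogenetic group, at 2 h (left) and 24 h (right), with 95% intervals; circles are salt minus low pH, squares flood minus low pH and triangles salt minus flood. Filled symbols passed the test; SlIDD14 at 24 h lies at 4.40 and 5.01 in both comparisons of salt, and CRF5 and STF4 lie on opposite sides wherever flood is compared.

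SlIDD14 gave the widest separation of any SlIDD gene, and it set salt roots apart from both other stresses at 24 h. SlIDD14 (Solyc10g084180) and its close relative SlIDD13 are known to act on stem thickness and leaf shape in tomato. Its 4 salt wells at 24 h had Ct values of 17.46, 17.50, 17.16 and 17.33. The low pH wells had 23.00, 22.10, 22.40 and 22.29, and the 3 flood wells 21.44, 22.57 and 23.02. Each salt well came up at least 3 cycles before any well of the other stresses, and no wells overlapped. Relative to ubiquitin SlIDD14 was 21.1-fold higher in salt than in low pH roots (log2 difference 4.40, standard error 0.27, limma adjusted p = 2.65e-07). Against flood roots it was 32.2-fold higher (log2 difference 5.01, standard error 0.40, limma adjusted p = 6.89e-06). Low pH and flood roots differed by -0.61 (flood minus low pH, 95% interval -1.52 to 0.31), which did not pass.

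At 2 h the same gene was already 3.1-fold higher in salt than in flood roots (log2 difference 1.63, standard error 0.28, limma adjusted p = 0.000768). Salt wells lay at 16.61, 16.44, 17.02 and 16.41 and flood wells at 19.08, 18.42 and 19.21. Low pH wells lay between 19.96 and 21.31, later than those of flood, but with the late ubiquitin of that plate their level fell between the other stresses. The log2 difference of salt against low pH was 0.89 (95% interval -0.42 to 2.20). From 2 h to 24 h the salt level moved by -0.04 on the log2 scale, the low pH level by -3.55 and the flood level by -3.42. In Ct alone SlIDD14 came up later at 24 h by 0.74 cycles in salt, 1.99 in low pH and 3.44 in flood roots. The movement of ubiquitin is thus part of these level changes. The change of the difference between the times was 3.38 for salt against flood (adjusted p = 6.04e-05, limma interaction) and 3.51 for salt against low pH (adjusted p = 0.00389). Without a reference the second of these was 1.25 (adjusted p = 0.0376) and the first 2.70 (adjusted p = 5.66e-04), and both passed with every reference tried.

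In the rest of the SlIDD6 group, to which SlIDD14 belongs, SlIDD7 and SlIDD13 did not share this order. SlIDD6 was also highest in salt at 24 h by mean level. SlIDD7 (Solyc06g075250), which rises in heat-stressed tomato leaves, and SlIDD13 (Solyc09g007550) were highest in flood roots at 24 h. SlIDD7 had flood Ct values of 18.21, 18.31, 19.12 and 18.58 at that time, salt values of 20.55, 20.34, 19.94 and 19.88, and low pH values of 20.33, 19.19 and 18.58. It was 2.69-fold lower in salt than in flood roots (log2 difference -1.43, standard error 0.32, limma adjusted p = 0.00289) and 5.33-fold higher in flood than in low pH roots (adjusted p = 0.00131). SlIDD7 in flood and low pH wells overlapped in Ct, and without a reference its difference was 0.81 (adjusted p = 0.123). SlIDD13 was 2.26-fold higher in flood than in low pH roots (log2 difference 1.18, adjusted p = 2.68e-04) and 1.70-fold lower in salt than in flood roots (adjusted p = 0.043), and both calls held with each of the 4 other references. SlIDD6 (Solyc11g069240) came up late in all groups, between 23.34 and 27.18. Its salt level at 24 h was 2.50-fold higher than in low pH roots (limma adjusted p = 9.86e-04), and with no reference the log2 difference was -0.48 (adjusted p = 0.0715).

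**Figure D3:**
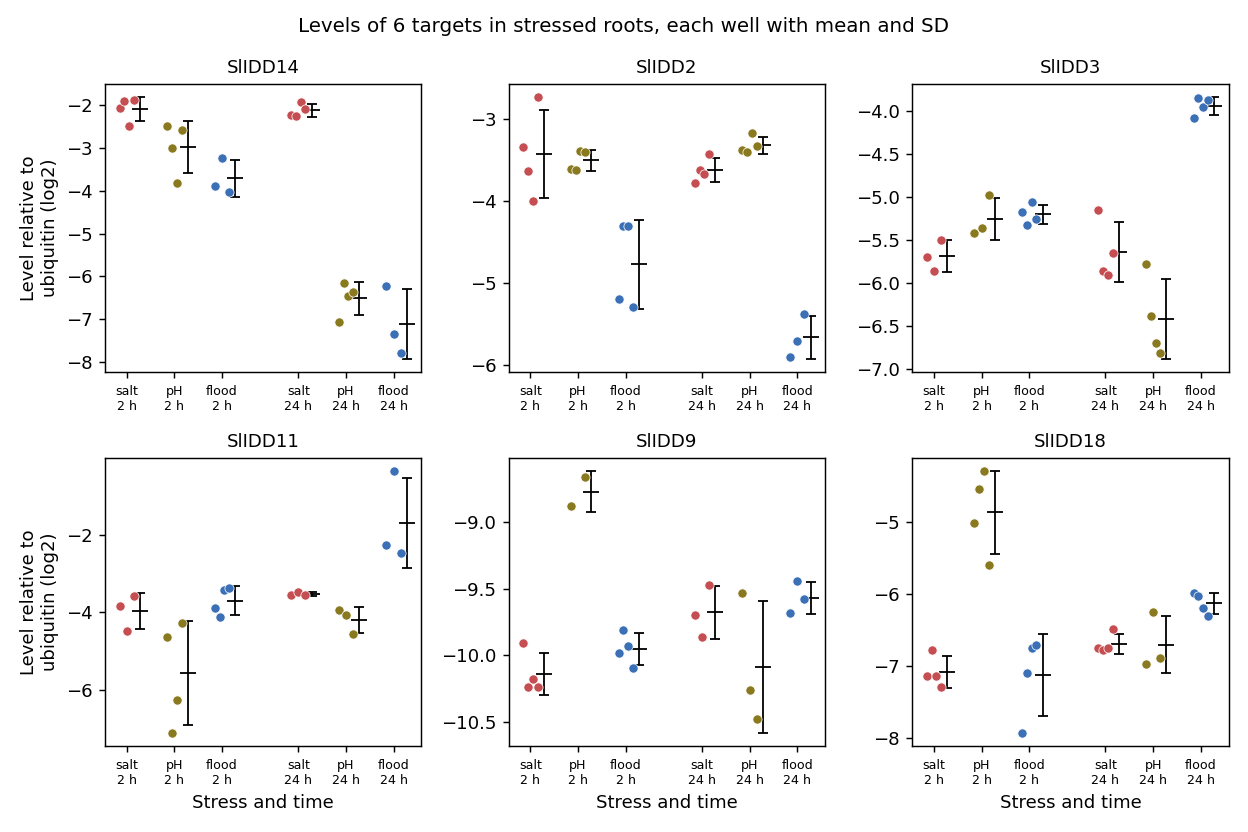
Levels relative to ubiquitin of the same plate on the log2 scale (vertical axis) for SlIDD14, SlIDD2, SlIDD3, SlIDD11, SlIDD9 and SlIDD18 in salt (red), low pH (olive, marked pH) and flood (blue) roots at 2 h and 24 h. Points are wells with the mean and SD at their side. Relative to ubiquitin SlIDD14 moves by -0.04 in salt, -3.55 in low pH and -3.42 in flood. In Ct alone it comes up later by 0.74, 1.99 and 3.44 cycles. SlIDD2 is lowest in flood at both times.

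SlIDD2 (Solyc06g062670), a relative of Arabidopsis IDD7 and of rice OsIDD2, which represses lignin genes, was lowest in flood roots at both times. At 2 h flood wells had Ct values of 20.35, 19.46, 19.46 and 20.45, whereas salt wells lay between 17.85 and 19.12 and low pH wells between 17.94 and 18.17. The flood wells did not overlap with either. The difference was 1.35 for salt minus flood (2.54-fold, standard error 0.38, limma adjusted p = 0.017) and -1.27 for flood minus low pH (2.41-fold, standard error 0.34, adjusted p = 0.013). The flood wells at 24 h were at 21.26, 21.06 and 20.73, the salt wells between 18.97 and 19.33 and the low pH wells between 16.92 and 17.15. SlIDD2 was then 4.12-fold higher in salt than in flood roots (log2 difference 2.04, standard error 0.26, limma adjusted p = 1.87e-04) and 5.08-fold lower in flood than in low pH roots (log2 difference -2.35, standard error 0.18, adjusted p = 8.74e-07). All 4 of these calls passed with the other references as well. Salt and low pH roots differed by 0.08 at 2 h (95% interval -0.62 to 0.78) and by -0.30 at 24 h (95% interval -0.72 to 0.11).

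By mean level the 2 relatives of SlIDD2 went the other way, highest in flood and lowest in low pH roots at both times. SlIDD10 (Solyc01g099340), known for expression in the root exodermis, and SlIDD11 (Solyc03g121660) were measured in neighbouring wells of the first plate. The flood wells of SlIDD10 at 24 h had Ct values of 20.25, 17.19 and 20.22, those of SlIDD11 17.60, 15.69 and 17.81. In both genes the earliest value came from the same row of wells. The low pH wells of SlIDD11 lay at 17.69, 17.80 and 18.31, so that only the level relative to ubiquitin kept the groups apart. SlIDD11 was 5.66-fold higher in flood than in low pH roots (log2 difference 2.50, standard error 0.57, limma adjusted p = 0.00874) and 3.57-fold lower in salt than in flood roots (log2 difference -1.83, standard error 0.60, adjusted p = 0.043). Without that row of flood wells these differences were 1.73, which passed, and -1.07, which did not (adjusted p = 0.0817). The flood against low pH call of SlIDD11 was lost with each other reference that could be fitted: the difference was 1.41 against the mean of the targets (adjusted p = 0.0751), 0.90 without a reference (adjusted p = 0.186) and 1.71 with ubiquitin over both plates (adjusted p = 0.0979). The salt against flood call of SlIDD11 was lost in 5 of 8 fits that each left out 1 row. SlIDD10 was 6.80-fold higher in flood than in low pH roots (log2 difference 2.77, standard error 0.82, adjusted p = 0.0253), and without the row the difference was 1.66, which passed too. Leaving out any of 3 low pH rows ended that call, with adjusted p up to 0.0837. The SlIDD10 call was also lost with each other reference that could be fitted, at 1.68 against the mean of the targets (adjusted p = 0.113), 1.17 without a reference (adjusted p = 0.217) and 1.97 with ubiquitin over both plates (adjusted p = 0.120). Between salt and flood roots SlIDD10 did not pass at 24 h (-1.92 for salt minus flood, standard error 1.06, limma adjusted p = 0.197). Salt roots lay above low pH roots for both genes, by 0.85 for SlIDD10 (adjusted p = 0.0253) and 0.67 for SlIDD11 (adjusted p = 0.0498). Without a reference those values were -0.96 and -1.14.

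At 2 h SlIDD10 and SlIDD11 were higher in flood than in low pH roots by 1.33 (adjusted p = 0.025) and 1.88 (adjusted p = 0.046), and SlIDD11 low pH wells spread from 18.83 to 21.67. Neither passed against the mean of the targets (adjusted p = 0.0757 and 0.0798), and the SlIDD11 call was kept in 3 of 8 fits without 1 row. Salt minus flood at 2 h was -0.55 for SlIDD10 (limma adjusted p = 0.258) and -0.27 for SlIDD11 (adjusted p = 0.716), and neither passed.

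SlIDD3 (Solyc09g074780), whose transcript is known from root exodermis and cortex, separated all 3 stresses at 24 h. Flood wells had Ct values of 19.42, 19.18, 19.30 and 19.21, low pH wells 19.52, 20.13, 20.45 and 20.57, and salt wells 20.69, 21.41, 21.45 and 21.19. No Ct values overlapped between the groups, and flood wells were the earliest. Relative to ubiquitin SlIDD3 was 5.61-fold higher in flood than in low pH roots (log2 difference 2.49, standard error 0.24, limma adjusted p = 4.71e-06). It was 3.27-fold lower in salt than in flood roots (log2 difference -1.71, standard error 0.27, adjusted p = 4.90e-04). Salt lay above low pH by 0.78 (adjusted p = 0.0498), with wells that overlapped in level, and below it by -1.02 without a reference (adjusted p = 0.0035). At 2 h no pair passed: the differences were 0.05 for flood minus low pH and -0.49 for salt minus flood. The change between the times passed for all 3 pairs, at 2.44 for flood against low pH (adjusted p = 7.61e-05, limma interaction), -1.22 for salt against flood (adjusted p = 0.0218) and 1.21 for salt against low pH (adjusted p = 0.0433). The last of these was lost with every other reference, at 0.69 against the mean of the targets (adjusted p = 0.193), 2.11 with ubiquitin over both plates (adjusted p = 0.0958) and -0.023 without a reference (adjusted p = 0.957). For flood against low pH the change of SlIDD3 was 3.09 with ubiquitin over both plates (adjusted p = 0.0723) and passed with the other 2. Its relative SlIDD15 (Solyc09g065670) passed in no comparison, with differences of -0.12 for salt minus flood and 0.33 for flood minus low pH at 24 h.

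The SlIDD1 group is related to the Arabidopsis factors IDD1 and IDD2, which act in gibberellin signaling. SlIDD1 (Solyc02g085580) was highest in flood roots at 24 h, where its wells lay between 20.12 and 20.68 against 21.31 to 21.53 in salt. It was 1.81-fold lower in salt than in flood roots (log2 difference -0.86, standard error 0.25, limma adjusted p = 0.0289), a call that held with the 4 other references. The 2.48-fold higher level in flood than in low pH roots (adjusted p = 3.21e-05) had a difference of -0.29 without a reference. SlIDD17 passed nowhere. SlIDD18 (Solyc04g080130) was highest in low pH roots at 2 h, 4.68-fold over salt (log2 difference -2.23 for salt minus low pH, standard error 0.58, limma adjusted p = 0.0239) and 4.80-fold over flood (-2.26, standard error 0.62, adjusted p = 0.0145). Its Ct values were 22.50, 22.02, 21.78 and 23.09 in low pH, 21.68, 21.32, 21.69 and 21.83 in salt, and 23.13, 22.29, 21.94 and 21.91 in flood roots. SlIDD18 itself thus came up no earlier in low pH than in salt wells, while ubiquitin of that plate was late in low pH wells; the part of the reference in the call was not tested beyond the values that follow. Without a reference the difference was 0.72 for salt and 0.03 for flood, and the salt call was kept in 2 of 8 fits without 1 row. At 24 h SlIDD18 was 1.49-fold higher in flood than in low pH roots (limma adjusted p = 0.046). That call was lost against the mean of the targets (0.45, adjusted p = 0.1105) and with ubiquitin of the same row (0.60, adjusted p = 0.1435). It passed without a reference (1.29) and with ubiquitin over both plates (2.10, adjusted p = 0.0293).

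The paper calls SlIDD9 a close homolog of the Arabidopsis proton tolerance factor STOP1, and SlSTOP1 crucial for tolerance of proton stress. The kinship of SlIDD9 is not settled by the paper, which also reports synteny of its locus with SlIDD-like1. In the paper's alignment the zinc fingers of SlIDD9 are closer to those of SlIDD12 than to those of STOP1. SlIDD9 and SlSTOP1 both carry the locus name Solyc06g072360 in the deposited table of fold values. They were kept as separate assays. SlIDD9 was higher in low pH roots than in both others at 2 h. Its low pH Ct values were 23.43 and 23.21 in 2 wells, against 25.02, 25.35, 25.29 and 25.35 in salt and 25.13, 24.96, 25.08 and 25.25 in flood roots. Both low pH wells came up more than 1 cycle before any other. The log2 difference was -1.37 for salt minus low pH (2.58-fold, standard error 0.29, limma adjusted p = 0.00956) and -1.18 for flood minus low pH (2.27-fold, standard error 0.29, adjusted p = 0.011). Both passed against the mean of the targets (-1.59, adjusted p = 0.003, and -1.52, adjusted p = 0.002) and without a reference. With ubiquitin of the same row they were -1.10 (adjusted p = 0.0655) and -0.91 (adjusted p = 0.0603). At 24 h the SlIDD9 differences were 0.41 for salt (adjusted p = 0.251) and 0.52 for flood (adjusted p = 0.150), so neither passed. Without a reference SlIDD9 still lay lower in both, by -1.39 in salt (adjusted p = 0.0011) and -1.08 in flood roots (adjusted p = 0.0106). The change between the times was 1.78 for salt against low pH (adjusted p = 0.00389, limma interaction) and 1.70 for flood against low pH (adjusted p = 0.0106). Without a reference the changes of SlIDD9 were 0.54 (adjusted p = 0.256) and 0.70 (adjusted p = 0.222), and neither passed.

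SlSTOP1 was measured on the second plate, with low pH Ct values of 21.53, 17.21, 20.63 and 21.54 at 2 h. The 17.21 well stood 3 cycles before the others of its group, and it came from the row in which ubiquitin was latest (18.94). The differences were -2.06 for salt minus low pH (standard error 1.00, limma adjusted p = 0.118) and -2.40 for flood minus low pH (standard error 1.18, adjusted p = 0.120). Without that row of low pH wells they were -0.57 and -0.91. The differences at 24 h were 0.57 (95% interval -0.09 to 1.23) and -0.33 (95% interval -0.90 to 0.24), and none passed.

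SlIDD5, SlIDD12 and SlIDD-like1 were grouped here as relatives of rice LPA1, which acts in shoot gravitropism. SlIDD5 (Solyc05g054030), known as OBV for its role in bundle sheath extensions, was higher than in low pH at 24 h by the same amount in both other stresses, 2.55-fold in salt (log2 difference 1.35, standard error 0.25, limma adjusted p = 4.45e-04) and 2.54-fold in flood roots (1.35, standard error 0.21, adjusted p = 3.09e-04). Its Ct values were 19.28, 19.83, 19.45 and 20.01 in salt, 19.15, 19.25, 19.58 and 19.80 in flood, and 19.01, 19.25 and 19.32 in low pH roots. The Ct values of SlIDD5 overlapped, and without a reference its differences were -0.45 and -0.25. Salt and flood roots differed by 0.01 (95% interval -0.65 to 0.66). SlIDD12 (Solyc01g005060) differed little between salt and flood, by 0.16 at 2 h (95% interval -0.26 to 0.57) and 0.10 at 24 h (95% interval -0.45 to 0.65). Its 2 h wells lay between 20.79 and 21.11 in salt, between 21.58 and 21.93 in flood and between 22.32 and 22.65 in low pH roots. Against low pH it was lower in flood roots, by -1.61 at 2 h (standard error 0.52, limma adjusted p = 0.046) and by -0.37 at 24 h (standard error 0.14, adjusted p = 0.0454). The salt differences of -1.45 (adjusted p = 0.117) and -0.27 (adjusted p = 0.371) did not pass. The flood calls of SlIDD12 were kept in 2 and 1 of 8 fits without 1 row. Without a reference all 4 differences turned, to 0.69 and 0.35 in flood and 1.5 and 0.42 in salt. SlIDD-like1 (Solyc03g098070), which sets stigma position in tomato, passed in no comparison.

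SlIDD8 (Solyc07g053570), a relative of the Arabidopsis root factor IDD3, followed SlIDD5. At 24 h it was 2.43-fold higher in salt (log2 difference 1.28, standard error 0.23, limma adjusted p = 4.45e-04) and 1.93-fold higher in flood (0.95, standard error 0.25, adjusted p = 0.00874) than in low pH roots. The Ct values themselves lay earlier in low pH (19.83, 20.03 and 20.34) than in salt (20.63, 20.50 and 20.64), and without a reference the differences were -0.52 and -0.65. At 2 h they were 0.38 and 0.16, and 1 flood well at 22.79 stood apart from the other 3, between 20.16 and 20.32. Salt and flood roots differed by 0.22 at 2 h (95% interval -1.02 to 1.46) and by 0.33 at 24 h (95% interval -0.32 to 0.98). SlIDD4 (Solyc04g008500), the relative of Arabidopsis RAVEN, had levels within 0.41 of each other at 24 h and passed in no comparison. SlIDD16 (Solyc08g063040), linked to salt and drought tolerance in tomato, likewise passed nowhere, with differences of -0.22 at 2 h and 0.27 at 24 h for salt minus flood.

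CRF5 and STF4, which lie outside the IDD family, were the targets with the largest differences against flood roots besides SlIDD14. CRF5, by its name a cytokinin response factor, was 14.3-fold lower in salt than in flood roots at 2 h (log2 difference -3.84, standard error 0.20, limma adjusted p = 1.87e-10) and 17.0-fold lower at 24 h (-4.09, standard error 0.22, adjusted p = 2.92e-05). Against low pH it was 5.81-fold higher in flood roots at 2 h (log2 difference 2.54, standard error 0.55, adjusted p = 0.011) and 18.7-fold higher at 24 h (4.22, standard error 0.17, adjusted p = 8.24e-08). STF4 was the reverse. It was 28.6-fold lower in flood than in low pH roots at 2 h (log2 difference -4.84, standard error 0.57, limma adjusted p = 1.88e-04) and 17.5-fold lower at 24 h (-4.13, standard error 0.16, adjusted p = 8.24e-08). It was 5.72-fold higher in salt than in flood roots at 2 h (adjusted p = 4.24e-07) and 13.1-fold higher at 24 h (adjusted p = 1.34e-05). All 8 calls passed under the other references.

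These 2 assays occupy neighbouring positions, 11 and 12, on the second plate, and the Ct values at the 2 positions were mirrored between the plates. At 2 h the salt wells read 17.09, 17.06 and 17.12 at position 11 (STF4) and 20.43, 20.22, 20.05 and 20.26 at position 12 (CRF5). The flood wells read 20.10, 20.56, 20.09 and 20.27 at position 11 and 17.18, 17.11, 16.78 and 17.14 at position 12. The mean at position 11 in flood roots thus differed by 0.02 cycles from that at position 12 in salt roots, and the mean at position 12 in flood by -0.04 cycles from that at position 11 in salt. At 24 h these values were 0.06 and -0.50 cycles. With low pH in place of salt they were -1.63 and -0.66 cycles at 2 h and -0.76 and -0.77 cycles at 24 h. STF4 minus CRF5 was -3.15 and -3.62 cycles in salt, -4.17 at both times in low pH, and 3.20 and 4.18 cycles in flood roots. With the flood positions exchanged, the salt minus flood difference was 0.09 for CRF5 (adjusted p = 0.787) and -0.47 for STF4 (adjusted p = 0.178) at 24 h, and the flood minus low pH difference of STF4 was 0.05 (adjusted p = 0.838). Differences also remained at 2 h with the exchange, and those that turned sign are given in the last section. Whether primers or wells were exchanged on the flood plate was not tested. Without these 2 targets in the fit, the calls of salt against flood numbered 2 at 2 h and 5 at 24 h, those of flood against low pH 4 and 9, and those of salt against low pH 2 and 6.

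**Figure D4:**
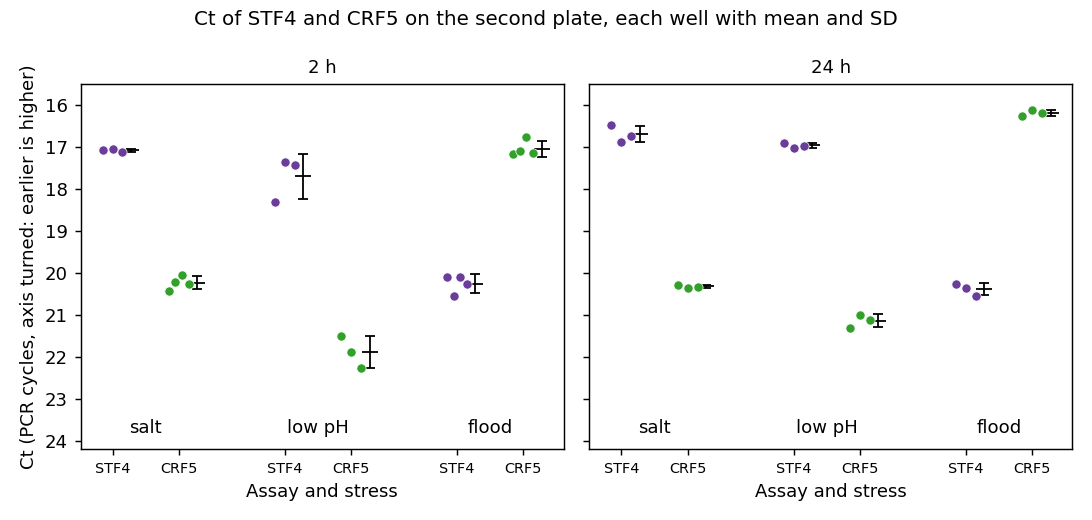
Ct in PCR cycles of STF4 (purple, position 11) and CRF5 (green, position 12) on the second plate in salt, low pH and flood roots at 2 h (left) and 24 h (right); the axis is turned so that earlier wells lie higher. Points are wells with the mean and SD; STF4 lies above CRF5 in salt and low pH and below it in flood, where the means at 2 h are 20.26 and 17.05 cycles.

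In salt against low pH roots STF4 was 5.00-fold lower in salt at 2 h (log2 difference -2.32, standard error 0.58, limma adjusted p = 0.0239), with a value of 0.62 without a reference, and the call was kept in 2 of 8 fits without 1 row. The difference at 24 h was -0.42 (95% interval -0.99 to 0.16).

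How the differences moved between 2 h and 24 h was tested for each pair of stresses. Of the 22 targets 27.3% passed for salt against low pH, 18.2% for flood against low pH and 13.6% for salt against flood. All 6 in salt against low pH and all 4 in flood against low pH changed toward the first stress: SlIDD14, SlIDD18, SlIDD9, SlIDD6, SlIDD3 and SlIDD1 in salt, and SlIDD18, SlIDD3, SlIDD9 and SlIDD1 in flood. SlIDD6 changed by 1.57 against low pH in salt (adjusted p = 0.00389, limma interaction) and SlIDD18 by 2.24 in salt (adjusted p = 0.0433) and 2.84 in flood (adjusted p = 0.0317). Ubiquitin of the low pH roots moved over the same interval by more than in either other stress, and most of these changes were lost without it. With no reference the change of salt against low pH was -0.021 for SlIDD18 (adjusted p = 0.957), -0.33 for SlIDD1 (adjusted p = 0.223) and 0.34 for SlIDD6 (adjusted p = 0.397). That of flood against low pH was 1.26 for SlIDD18 (adjusted p = 0.0901) and 0.069 for SlIDD1 (adjusted p = 0.760). Of these 10 changes against low pH, those of SlIDD14 in salt and SlIDD3 in flood passed without a reference. For salt against flood, SlIDD14, STF4 and SlIDD3 passed. STF4 changed by 1.19 (adjusted p = 0.0084), and without a reference by 0.51 (adjusted p = 0.114).

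**Figure D5:**
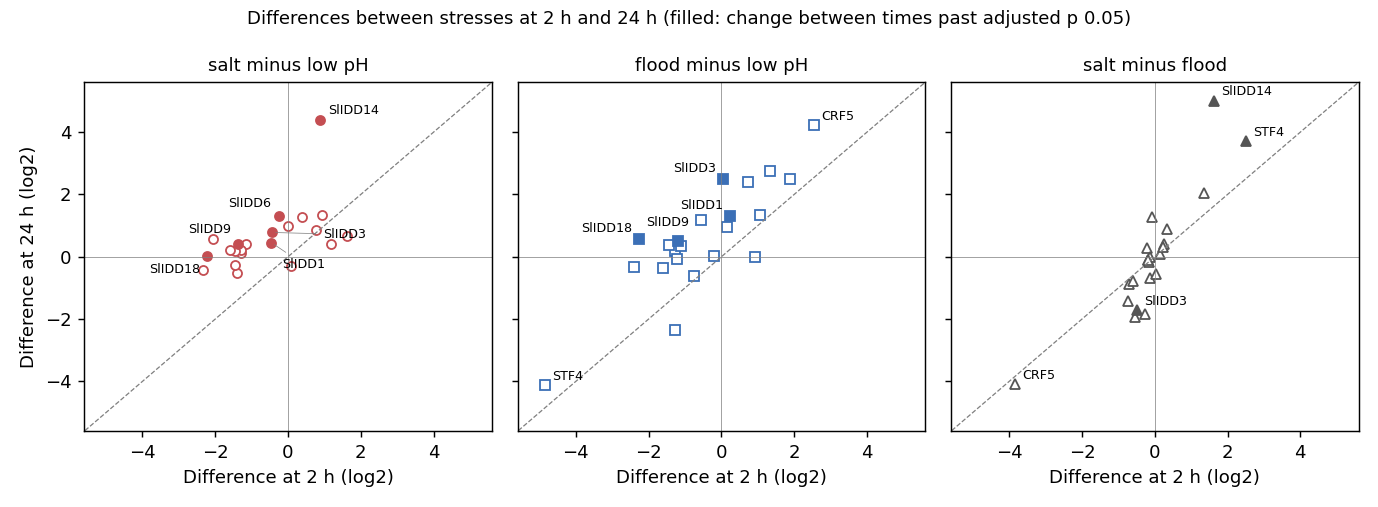
Log2 difference in level at 2 h (horizontal axis) and at 24 h (vertical axis) for the 22 targets in salt minus low pH (left), flood minus low pH (middle) and salt minus flood (right); the dashed line marks equal differences. Filled symbols passed the test of the change between times; SlIDD14 moves from 0.89 to 4.40 in the left panel and from 1.63 to 5.01 in the right.

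The order of the 3 stresses was the same at both times for 7 of 22 targets. At 2 h the low pH level was the highest of the 3 for 11 targets and the salt level the lowest for 11. At 24 h the flood level was the highest for 12 targets and the low pH level the lowest for 15. These ranks depended on the reference: by mean Ct alone, low pH was the highest for 6 targets at 2 h and the lowest for 13, salt was the lowest for 5 at 2 h, and at 24 h flood was the highest for 10 and low pH the lowest for 10. A stress that passed against both others on the same side was found at 2 h for SlIDD9, SlIDD18 and STF4 (low pH higher), CRF5 (flood higher), and SlIDD2 and STF4 (flood lower). At 24 h these were SlIDD14 (salt higher), SlIDD1, SlIDD3, SlIDD7, SlIDD11, SlIDD13 and CRF5 (flood higher), SlIDD2 and STF4 (flood lower), and SlIDD3, SlIDD5, SlIDD8, SlIDD10 and SlIDD11 (low pH lower). Without a reference all 5 of the last set lay lower in salt than in low pH roots at 24 h, by -1.02 for SlIDD3, -0.45 for SlIDD5, -0.52 for SlIDD8, -0.96 for SlIDD10 and -1.14 for SlIDD11. SlIDD1 likewise was not higher in flood than in low pH roots without a reference (-0.29), and of the 3 targets higher in low pH at 2 h, SlIDD9 alone passed against both others without one.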

How the data were processed

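Transcripts were measured by SYBR Green qRT-PCR. The values analysed are the Ct values that the authors deposited, another unit than counts or expression values: PCR cycles per well, before any normalization. Relative quantities and fold changes of treated over control, also deposited, were not used. Stress and tissue were taken from sample titles, because some characteristics contradict them. Time is tied to the plate in the labels, but the upper rows (A to D) of both plates were read as 2 h and the lower rows as 24 h, and assays of the second plate were placed, by a match to the study's fold tables, which is no independent evidence. The 3 wells of each column with irregular names (18 in all) were left out. Members and lists were chosen with earlier results of these data known.

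For each pair and time, minus delta Ct against ubiquitin of the same plate was fitted with limma 3.58.1 in R 4.3.3 (moderated variance; at least 2 wells per group). Uncertainty of the ubiquitin mean entered the error (Satterthwaite degrees of freedom). Two-sided p-values were adjusted over 22 targets by Benjamini-Hochberg, threshold 0.05. The fit was tried on simulated wells with independent errors and a level ubiquitin. That trial covers neither a reference that moves between stresses nor wells from the same plant. Full statistics are given for the 5 targets with the largest absolute difference among those that passed in each comparison, for SlIDD9 and SlSTOP1 against low pH, and for SlIDD8 and SlIDD12; other targets were named after their values were seen. Exact permutation tests were enumerated in R, and tables were handled with pandas 2.3.3 under Python 3.11.15. Alternatives were other references, a block of well rows, a joint fit, each row left out, other adjustments and tests, the irregular wells in plate order and wells over 2 cycles from their median left out; the exchange or removal of STF4 and CRF5 was added after seeing the data.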

Additional observations from a re-analysis of the deposited data

Results flagged for a closer look

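In 10 of 100 groups of 4 wells (10%) 1 well lay far from the other 3, where chance gives about 1 in 20. The gap of that well to its neighbour, as a share of the range of the group, was 0.969 for SlIDD-like1 in salt at 2 h (22.36 against 20.54 to 20.60 cycles), 0.942 for SlIDD8 in flood at 2 h (22.79 against 20.16 to 20.32) and 0.908 for SlIDD16 in flood at 2 h. It was 0.883 for SlIDD13 in low pH at 2 h and 0.840 for SlIDD5 in salt at 2 h. At 24 h it was 0.929 for SlIDD1 and 0.896 for SlIDD12 in low pH, 0.925 for SlIDD17 and 0.851 for SlIDD13 in flood, and 0.918 for SlIDD18 in salt roots. All wells were kept.

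The difference between stresses changed from 2 h to 24 h for 13 combinations of target and pair (limma interaction). For salt minus low pH the change was 3.51 for SlIDD14, 2.24 for SlIDD18, 1.78 for SlIDD9, 1.57 for SlIDD6, 1.21 for SlIDD3 and 0.91 for SlIDD1. For flood minus low pH it was 2.84 for SlIDD18, 2.44 for SlIDD3, 1.70 for SlIDD9 and 1.07 for SlIDD1. For salt minus flood it was 3.38 for SlIDD14, 1.19 for STF4 and -1.22 for SlIDD3. SlIDD14 in both pairs and SlIDD3 in salt minus flood passed with every reference tried.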

How the results depend on the processing

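Counts of calls are given as salt against low pH, flood against low pH and salt against flood, each at 2 h and then 24 h, where they moved by more than 1.5 times from 3, 7, 8, 13, 4 and 9. With the mean of the targets as the reference, flood against low pH gave 4 and 8 calls and salt against flood 14 at 24 h. With no reference, salt against low pH gave 13 and 17, flood against low pH 13 at 2 h and salt against flood 7 at 2 h. With ubiquitin over both plates, salt against low pH gave 5 at 2 h, flood against low pH 4 and 7, and salt against flood 8 at 2 h. Salt against low pH at 2 h gave 1 call with ubiquitin of the same row, 7 in one fit over the 3 groups and 9 without adjustment. The exact permutation test, for which few rows held ubiquitin at 24 h, gave 6 and 2 calls for salt against low pH. On the second plate at 24 h 3 salt and 2 low pH wells held ubiquitin, so no exact p there could fall below 0.1. Targets of that plate, SlIDD14 among them, could thus not be called at 24 h. In flood roots at 24 h 2 wells per plate held ubiquitin, so no exact p could fall below 0.0667. The 0 calls of flood against low pH and of salt against flood at 24 h were thus fixed in advance. They do not bear on the 13 and 12 calls of limma without adjustment. With the flood positions of STF4 and CRF5 exchanged, flood against low pH gave 4 at 2 h and salt against flood 5 at 24 h. Without both targets flood against low pH gave 4 at 2 h and salt against flood 2 and 5. Leaving out 1 row gave 0 to 8 and 4 to 12 calls for salt against low pH, 4 to 10 and 11 to 14 for flood against low pH, and 3 to 5 and 6 to 10 for salt against flood. Calls of a change between times (6, 4 and 3 in the same order of pairs) were 3, 2 and 6 against the mean of the targets, 2 for flood against low pH and 5 for salt against flood with no reference, 2 and 0 for the pairs with low pH with ubiquitin over both plates, and 10, 7 and 5 without adjustment.

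Rows share only a letter: 24 correlations of row deviations ran from -0.29 to 0.48, with 12 over 0.1. With the row as a replicate block, salt against low pH gave 0 and 8 calls, flood against low pH 7 and 11, and salt against flood 3 and 7.

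Several named differences turned sign. With no reference, salt minus low pH at 2 h was 1.5 for SlIDD12, 0.72 for SlIDD18, -0.18 for SlIDD8, 0.88 for SlSTOP1 and 0.62 for STF4, and at 24 h -0.96 for SlIDD10, 0.42 for SlIDD12, -0.45 for SlIDD5, -0.48 for SlIDD6, -0.52 for SlIDD8 and -1.39 for SlIDD9. Flood minus low pH was 0.69 for SlIDD12, 0.029 for SlIDD18 and -0.44 for SlIDD8 at 2 h, and 0.35 for SlIDD12, -0.65 for SlIDD8, -1.08 for SlIDD9 and 0.39 for SlSTOP1 at 24 h. The changes between times of salt minus low pH were -0.33 for SlIDD1, -0.021 for SlIDD18 and -0.023 for SlIDD3. Against the mean of the targets, flood minus low pH was -0.18 for SlIDD8 at 2 h, and -0.14 for SlIDD8 and -0.57 for SlIDD9 at 24 h, salt minus low pH -0.33 for SlIDD9 and salt minus flood -0.23 for SlIDD12 at 24 h. With ubiquitin over both plates, SlIDD8 at 2 h was -1.28 in flood minus low pH, -0.088 in salt minus flood and -1.37 in salt minus low pH, and SlIDD12 0.30 in salt minus low pH. At 24 h flood minus low pH was 1.15 for SlIDD12, -0.27 for SlIDD9 and 1.19 for SlSTOP1, and salt minus low pH -0.011 for SlIDD10, 1.36 for SlIDD12 and -0.45 for SlIDD9. Without wells over 2 cycles from the median, SlIDD8 in salt minus flood at 2 h was -0.42. Exchanging the flood positions gave -0.67 for CRF5 in flood minus low pH and -0.69 for STF4 in salt minus flood at 2 h, and 0.053 for STF4 in flood minus low pH, 0.090 for CRF5 and -0.47 for STF4 in salt minus flood at 24 h. Without 1 row, SlIDD8 at 2 h ran from -0.15 to 0.79 in flood minus low pH and from -0.41 to 0.53 in salt minus flood, and SlIDD12 at 24 h from -0.034 to 0.16 in salt minus flood. Apart from the construction of these settings, the cause was not tested.

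Ubiquitin over both plates differed by -1.19 and 0.94 cycles for salt minus low pH and by -0.85 and 0.81 for flood minus low pH at 2 h and 24 h, which turned the sign of the first plate at 2 h and of the second at 24 h. For salt minus flood, leaving out 1 row gave -0.16 to 0.063 cycles on the first plate at 2 h and -0.11 to 0.11 on the second at 24 h. The 2 to 4 wells in each group limit the precision of every value.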
